A study of Rattus norvegicus with 18 samples.

Results

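The PPAR, PGC-1 and mitochondrial regulator genes are 10 transcription factors and coactivators of oxidative metabolism: Ppara, Ppard, Pparg, Ppargc1a, Ppargc1b, Esrra, Esrrg, Rxra, Nrf1 and Tfam. They were taken by gene symbol from a table of 32116 rat genes; each symbol matched 1 row, and all 10 were among the 13851 genes tested. RNA was sequenced from whole kidneys in 18 libraries of 3 groups: untreated rats (NC, n = 6), rats on adenine, 100 mg per kg daily (CKD, n = 6), and rats on that adenine dose plus the drug SZ-A, 300 mg per kg daily (SZ, n = 6). CKD and SZ therefore share the adenine dose, and no group received SZ-A alone. The sources used here do not give strain, age, sex, route, duration or the nature of SZ-A. Whether the 6 libraries of a group are 6 animals is not stated, and the tests therefore refer to the spread among libraries, part of which may be technical.

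PPARs are nuclear receptors that bind fatty acids and related lipids, and each acts on DNA as a heterodimer with a retinoid X receptor such as RXRA. PPAR alpha drives genes of fatty acid oxidation and is abundant in the proximal tubule, the segment that takes most of its energy from fatty acids; PPAR delta is broadly expressed, and PPAR gamma is best known for fat storage genes. The PGC-1 coactivators dock on PPARs and on estrogen-related receptors (ERRs) and raise mitochondrial genes. NRF1, nuclear respiratory factor 1, switches on nuclear genes for the respiratory chain and for TFAM, which packages and transcribes the mitochondrial chromosome.

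Levels are FPKM, fragments per kilobase of gene divided by a library size set by the authors. Differences are log2 fold changes of FPKM + 1, so that changes of genes with low FPKM come out too small. That library size was not the recovered number of reads: it averaged 0.896 of that number in NC, 1.14 in CKD and 1.04 in SZ. A gene is called where limma's Benjamini-Hochberg adjusted p over all genes tested within a comparison is under 0.05. Recovered depth ran from 15354358 to 18532375 reads per library. In 3 libraries, CKD 2, CKD 5 and SZ 3, levels fell with gene length: the slope of log2(FPKM + 1) per doubling of length, as deviation from each gene's mean, was -0.21, -0.31 and -0.25, against -0.10 in CKD 1 and 0.011 to 0.115 in the other 14. Reads from rRNA genes made up 65.8 to 154 ppm of recovered reads in NC, 70.9 to 1741 in CKD and 93.8 to 248 in SZ, with CKD 5 (1741) and CKD 6 (809) the highest; their part in the results was not tested. The differences of the regulators are plotted with and without CKD 2, CKD 5 and SZ 3.

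Promoter sequences were available for 9 of the 10 genes from RefSeq (build GRCr8), with 13 start sites between them. The 250 bases before the start of Ppara and Ppargc1a are shown because these are the receptor and the coactivator with the largest falls of their kinds in CKD, and that of Tfam because it is the downstream gene that was not called. Each holds 1 exact match, in capitals, to a motif searched on both strands over the window from 250 bases before to 50 after a start: CGCATGCG (NRF1) in Ppara with its first base at position -99, TGACGTCA (cAMP response element) in Ppargc1a at -181, and CCGGAAGT (GABP and other ETS factors) in Tfam at -56.
Ppara, chr7:118712357-118712606, plus strand: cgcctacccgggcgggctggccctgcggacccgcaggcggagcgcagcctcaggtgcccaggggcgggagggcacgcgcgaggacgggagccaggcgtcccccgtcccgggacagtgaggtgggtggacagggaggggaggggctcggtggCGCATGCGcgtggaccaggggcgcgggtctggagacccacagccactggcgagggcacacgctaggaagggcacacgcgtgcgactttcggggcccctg
Ppargc1a, chr14:63634058-63634307, plus strand: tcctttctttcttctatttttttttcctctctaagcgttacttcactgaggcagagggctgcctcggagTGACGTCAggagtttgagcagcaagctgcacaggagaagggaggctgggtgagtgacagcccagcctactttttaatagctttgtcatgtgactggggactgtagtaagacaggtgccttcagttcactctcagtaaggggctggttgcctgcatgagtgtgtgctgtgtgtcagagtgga
Tfam, chr20:17355123-17355372, plus strand: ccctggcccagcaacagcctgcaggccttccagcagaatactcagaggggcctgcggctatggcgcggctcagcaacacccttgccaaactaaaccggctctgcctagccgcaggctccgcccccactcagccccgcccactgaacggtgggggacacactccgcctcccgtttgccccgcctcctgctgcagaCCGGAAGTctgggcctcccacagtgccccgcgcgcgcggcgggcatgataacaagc
Of all 33469 promoters in that table, 1.66% held CGCATGCG, 1.83% held TGACGTCA and 3.81% held CCGGAAGT; TGACGTCA was added after the sequences had been seen. No window of the 9 genes held the ERR motif TCAAGGTCA, present in 0.433% of promoters, or 2 direct copies of AGGTCA with 1 base between them, the PPAR and RXR element, present in 0.0538%. None of the start sites not shown held CGCATGCG, TGACGTCA or CCGGAAGT, so the sequences shown are the only ones of the 9 genes with such a match. These matches describe letters only.

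In CKD kidneys 7 of the 10 regulators were called lower than in NC, where 26.0% of all genes tested were called lower (24.4% were called higher, 50.3% in all). They were Ppara, Ppard, Ppargc1a, Ppargc1b, Esrra, Esrrg and Rxra; Nrf1 and Tfam were not called. Pparg was the 1 called higher, but it was tested only because its CKD libraries reached the low-value filter of 1 FPKM, so its call is a description and is not read against the share of all genes. For 4 of the lower genes (Ppara, Ppargc1a, Esrrg and Rxra) the CKD and NC libraries did not overlap, against 26.5% of all genes. The median log2 fold change of the 10 genes, Pparg included, was -0.77, and that of all genes tested was -0.040. Without the 3 libraries Ppard was no longer called (limma adjusted p = 0.051), and the other lower genes were. Under TPM scaling only Ppara and Esrrg were still called lower. Under plain library totals Ppara, Ppargc1a, Ppargc1b and Esrrg were. Of all genes, 3595 were called lower on the deposited scale, 1279 under TPM scaling and 1730 under plain library totals.

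With SZ-A, 2 of the 10 regulators, Ppara and Esrra, were called higher than in CKD, where 4.16% of all genes were called higher (6.82% were called lower, 11.0% in all). Pparg was called lower, which its selection through the CKD group favoured, so that call too is a description. All 3 calls depended on single libraries: 0 of the 10 were called by limma without any 1 of CKD 3, CKD 4, CKD 5, SZ 1, SZ 2, SZ 4 or SZ 5 (3 to 5 at an unadjusted p under 0.05), and 6, Pparg among them, were called without SZ 3. The count over all genes moved the same way. It was 1521 of 13851 in the main fit, 533 (without SZ 4) to 1113 (without CKD 4) in those 0-call fits, and 3058 without SZ 3. Fitting only the CKD and SZ libraries called 554 of all genes. When only the CKD and SZ libraries were fitted, 0 were called (4 at an unadjusted p under 0.05), and without the 3 libraries the 4 called were Ppara, Pparg, Esrrg and Rxra. For none of the 10 did the SZ and CKD libraries separate completely (2.26% of all genes did). Against NC, 1 of the 10 was called in SZ, Ppard, which was lower, where 21.1% of all genes were called (8.61% lower, 12.5% higher), and again 0 of 10 separated completely (14.6% of all genes). The 3 comparisons share their libraries pairwise, so these counts are not independent of each other.

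**Figure D1:**
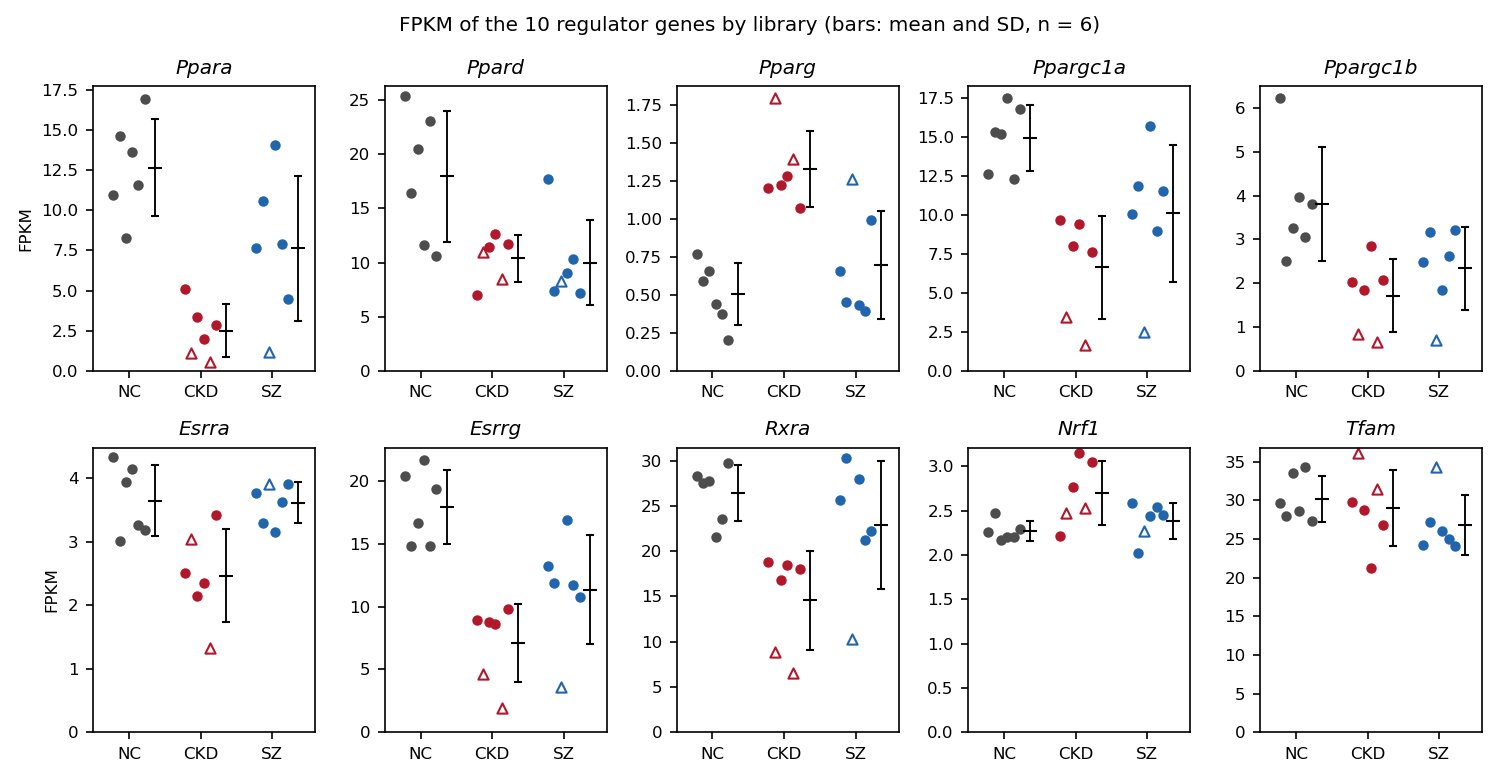
FPKM (vertical axis, from 0, scaled per gene) of each regulator in the 6 NC, 6 CKD and 6 SZ libraries; each point is 1 library, open triangles mark CKD 2, CKD 5 and SZ 3, and bars give the mean and SD of the group. Ppara, Ppargc1a, Esrrg and Rxra lie lower in all 6 CKD libraries than in any NC library, and the open triangles are the lowest points of their group for these genes.

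Ppara, the receptor for fatty acid oxidation genes (7:116832756-116895346 in mRatBN7.2, plus strand), had the largest difference of the 10 between CKD and NC. Its level ran from 8.29 to 16.9 FPKM in NC (median 12.6), from 0.549 to 5.11 in CKD (median 2.42) and from 1.15 to 14.03 in SZ (median 7.80). Every CKD library lay below every NC library. Of the SZ libraries, 4 of 6 lay above the highest CKD library, and SZ 3 and SZ 6 lay within the CKD range. Group means, each over 6 libraries, were 12.7 FPKM for NC (SD 3.03), 2.50 for CKD (SD 1.65) and 7.64 for SZ (SD 4.52).

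Ppara fell by 2.08 on the log2 scale in CKD against NC (SE 0.39, limma adjusted p = 0.00023), and without the 3 libraries the difference was -1.68 (adjusted p = 8.5e-05). In SZ against CKD it was 1.22 higher (SE 0.39, adjusted p = 0.049), and 1.17 higher without the 3 libraries (adjusted p = 0.015). That second call sat at the threshold: it held under 6 of 29 alternative fits, with adjusted p from 0.0043 to 0.13 and the same direction in all of them. Against NC the SZ level was -0.86 (adjusted p = 0.12) and was not called.

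Ppard, the broadly expressed PPAR (20:6298785-6363968, plus strand), differed in pattern. It ran from 10.6 to 25.3 FPKM in NC (median 18.5), from 7.02 to 12.7 in CKD (median 11.2) and from 7.15 to 17.7 in SZ (median 8.68). NC 4 and NC 6 lay within the CKD range, so the groups overlapped, and SZ 1 stood above the other SZ libraries. Ppard fell by 0.69 in CKD against NC (SE 0.22, adjusted p = 0.015) and by 0.78 in SZ against NC (SE 0.22, adjusted p = 0.019), and SZ and CKD were not told apart (-0.089, adjusted p = 0.82). Under TPM scaling neither difference from NC was called (adjusted p = 0.37 for CKD and 0.14 for SZ), and without NC 1 the SZ difference had an adjusted p of 0.051.

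Pparg, the lipid storage receptor (4:148423194-148548468, plus strand), was the only regulator called higher in CKD, from a very low level. Libraries held 7 to 24 of its reads in NC, 45 to 62 in CKD and 16 to 53 in SZ. Its level ran from 0.203 to 0.770 FPKM in NC (median 0.516), from 1.07 to 1.80 in CKD (median 1.25) and from 0.394 to 1.27 in SZ (median 0.554). All 6 CKD libraries lay above every NC library; 5 of 6 SZ libraries lay below every CKD library, and SZ 3 did not.

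Pparg passed the filter of 1 FPKM in 6 libraries only through the CKD group, so a difference was built into its being tested and its call is given as a description. The fitted difference was 0.63 in CKD against NC (SE 0.14, adjusted p = 0.00089) and -0.47 in SZ against CKD (SE 0.14, adjusted p = 0.035, called in 17 of 28 alternative fits); without the 3 libraries they were 0.56 (adjusted p = 0.0031) and -0.48 (adjusted p = 0.040). SZ and NC differed by 0.16 (adjusted p = 0.43). Of 8 adipocyte markers, 4 were too low to test: Lep, Retn, Ucp1 and Plin1, none above 0.397 FPKM in any library. Of the 4 tested, Cidea, a lipid droplet protein, was higher in CKD (0.711 to 2.74 FPKM, 1.09, adjusted p = 0.00038), Adipoq was lower, and Cidec (-0.66, adjusted p = 0.22) and Lipe (0.13, adjusted p = 0.35) were not called; Cidea, like Pparg, lay under 1 FPKM in every NC library, and it and the untested markers are named after their values were seen. The summed level of the 8 markers ran from 14.6 to 44.0 in NC, 15.6 to 22.9 in CKD and 12.1 to 32.6 in SZ; macrophage markers, which rise in CKD, are given below, and their part in the Pparg values was not tested.

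Rxra, the dimer partner of the PPARs (3:10989832-11073712, plus strand), was the most abundant of the receptors. It ran from 21.6 to 29.7 FPKM in NC (median 27.7), from 6.53 to 18.8 in CKD (median 17.4) and from 10.3 to 30.3 in SZ (median 23.9). CKD and NC did not overlap, and 5 of 6 SZ libraries lay above every CKD library. Rxra fell by 0.90 in CKD against NC (SE 0.25, adjusted p = 0.0062), and by 0.52 without the 3 libraries (adjusted p = 0.0010). This fall was not called under TPM scaling or plain library totals. In SZ against CKD the difference was 0.64 (SE 0.25, adjusted p = 0.10) and was not called; without the 3 libraries it was 0.46 (adjusted p = 0.018), and without SZ 3 alone it was 0.85 (adjusted p = 0.015).

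Ppargc1a, the coactivator PGC-1 alpha (14:58861144-59512656, plus strand), ran from 12.3 to 17.5 FPKM in NC (median 15.3), from 1.67 to 9.69 in CKD (median 7.82) and from 2.47 to 15.7 in SZ (median 10.8). CKD and NC did not overlap, and 4 of 6 SZ libraries lay above every CKD library. Ppargc1a fell by 1.21 in CKD against NC (SE 0.35, adjusted p = 0.0075), a difference that shrank to -0.72 without the 3 libraries (SE 0.13, adjusted p = 0.00048). Under TPM scaling the CKD against NC difference was -0.86 and was not called (adjusted p = 0.074). The difference was 0.55 in SZ against CKD (adjusted p = 0.30) and -0.66 in SZ against NC (adjusted p = 0.19), and neither was called. Leaving out SZ 3 alone raised the SZ against CKD difference to 0.86 (adjusted p = 0.041).

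Ppargc1b, the coactivator PGC-1 beta, stood lower than Ppargc1a in each group mean. It ran from 2.51 to 6.22 FPKM in NC (median 3.53), from 0.651 to 2.86 in CKD (median 1.94) and from 0.698 to 3.21 in SZ (median 2.55). CKD 4 lay within the NC range and the other 5 CKD libraries lay below it. Ppargc1b fell by 0.84 in CKD against NC (SE 0.24, adjusted p = 0.0069), and by 0.55 without the 3 libraries (adjusted p = 0.015). Under TPM scaling the CKD against NC difference was -0.63 and was not called (adjusted p = 0.11). The differences of SZ from CKD (0.30, adjusted p = 0.42) and from NC (-0.55, adjusted p = 0.11) were not called.

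Esrrg, the ERR with the higher level in kidney here (13:99564669-99783397, plus strand), ran from 14.8 to 21.6 FPKM in NC (mean 17.9), from 1.91 to 9.78 in CKD (median 8.71) and from 3.62 to 16.8 in SZ (median 11.8). CKD and NC did not overlap, and 5 of 6 SZ libraries lay above every CKD library. Esrrg fell by 1.34 in CKD against NC (SE 0.31, adjusted p = 0.0016), and by 0.90 without the 3 libraries (adjusted p = 3.9e-05). In SZ against CKD the difference was 0.63 (adjusted p = 0.19), and 0.45 without the 3 libraries (adjusted p = 0.039). In SZ against NC it was -0.71 (adjusted p = 0.11); this became -0.45 without them (adjusted p = 0.012), and it was called under 3 of 29 alternatives. Leaving out SZ 3 alone gave 0.89 for SZ against CKD (adjusted p = 0.026).

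Esrra, the ERR induced by PGC-1 alpha in many tissues (1:204104101-204114268, minus strand), had a narrower range. It ran from 3.01 to 4.33 FPKM in NC (median 3.60), from 1.32 to 3.42 in CKD (median 2.43) and from 3.16 to 3.91 in SZ (median 3.70). The groups overlapped, yet all 6 SZ libraries lay above the CKD median. Esrra fell by 0.44 in CKD against NC (SE 0.13, adjusted p = 0.0090) and was 0.44 higher in SZ against CKD (SE 0.13, adjusted p = 0.040, called in 13 of 28 alternative fits with adjusted p from 0.021 to 0.13). Without the 3 libraries the fall in CKD was still called (-0.37, adjusted p = 0.013), and the SZ against CKD difference was not (0.34, adjusted p = 0.069). The fall in CKD was not called on other scales: it was -0.12 under TPM scaling (adjusted p = 0.56) and -0.19 under plain library totals (adjusted p = 0.25). SZ and NC differed by -0.0046 (adjusted p = 0.98), with an SE of 0.13.

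Nrf1 (4:58664957-58825328, plus strand) and Tfam (20:17356197-17368292, plus strand) form the step next to the mitochondrial chromosome, and neither was called in any of the 3 comparisons. Nrf1 ran from 2.17 to 2.48 FPKM in NC (median 2.23), from 2.21 to 3.16 in CKD (median 2.65) and from 2.02 to 2.59 in SZ (median 2.44). Its CKD against NC difference was 0.17 (SE 0.084, adjusted p = 0.093), and 4 of 6 CKD libraries lay above every NC library. It passed the threshold, as higher, under TPM scaling (0.59), plain library totals (0.42), array weights (0.24), the length correction (0.38) and without CKD 1 (0.21).

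Tfam was the most abundant regulator in all 3 groups. It ran from 27.3 to 34.3 FPKM in NC (median 29.1), from 21.2 to 36.1 in CKD (median 29.3) and from 24.1 to 34.3 in SZ (median 25.5), and the 3 ranges overlapped. Its differences were -0.068 in CKD against NC (SE 0.12, adjusted p = 0.64), -0.10 in SZ against CKD (adjusted p = 0.58) and -0.17 in SZ against NC (adjusted p = 0.32). The direction of the first depends on scaling: it was 0.38 under TPM scaling and 0.27 under plain library totals, both called (adjusted p = 0.0057 and 0.045).

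**Figure D2:**
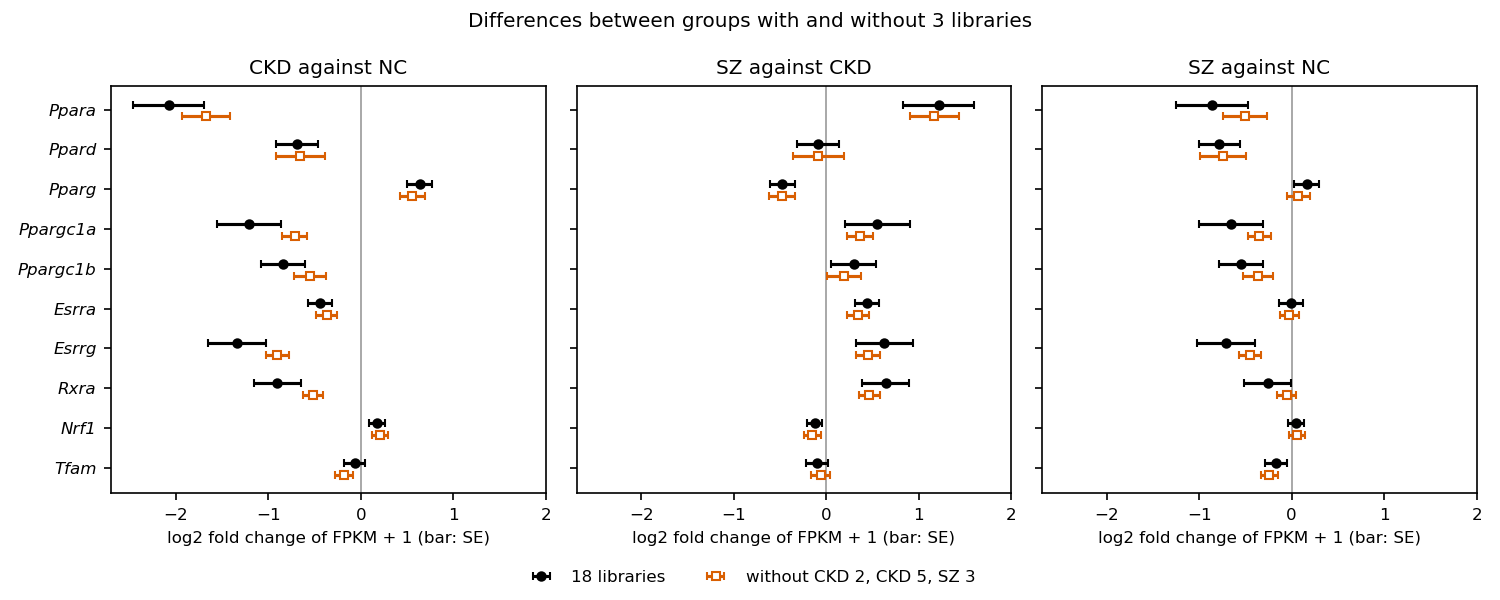
Log2 fold change of FPKM + 1 (horizontal axis) of each regulator in the 3 comparisons, with bars for the SE; black circles use all 18 libraries, open squares leave out CKD 2, CKD 5 and SZ 3. In CKD against NC, Ppara lies farthest from 0 at -2.08, Pparg lies farthest right at 0.63, and Nrf1 (0.17) and Tfam (-0.068, but above 0 under TPM scaling and plain totals) lie between.

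Scaling bears on the size of these differences and on which are called. In CKD against NC only Tfam changed direction under TPM scaling or plain library totals. The deposited values centre the genes tested, with a median CKD against NC difference of -0.040; TPM scaling moves that median to 0.37 and plain library totals move it to 0.25. Relative to zero on those scales the split of called genes changed from 3378 higher and 3595 lower to 6581 and 1279 (TPM) or 5982 and 1730 (totals). Under TPM scaling the called regulators were Ppara and Esrrg, lower, and Pparg, Nrf1 and Tfam, higher. The falls of Ppara and Esrrg were called in all 29 alternative fits.

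In all 3 libraries that followed gene length, Ppara, Ppargc1a, Ppargc1b, Esrrg and Rxra lay below every other library of their group, and Pparg and Tfam lay above. Ppard and Nrf1 lay within the range of the others in all 3. Esrra lay within it in CKD 2, below it in CKD 5 and above it in SZ 3. With gene lengths in the table of 2021 bases for Ppara, 2168 for Pparg, 1500 for Tfam and 8961 for Nrf1, the position of a gene in these libraries did not follow its length alone.

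**Figure D3:**
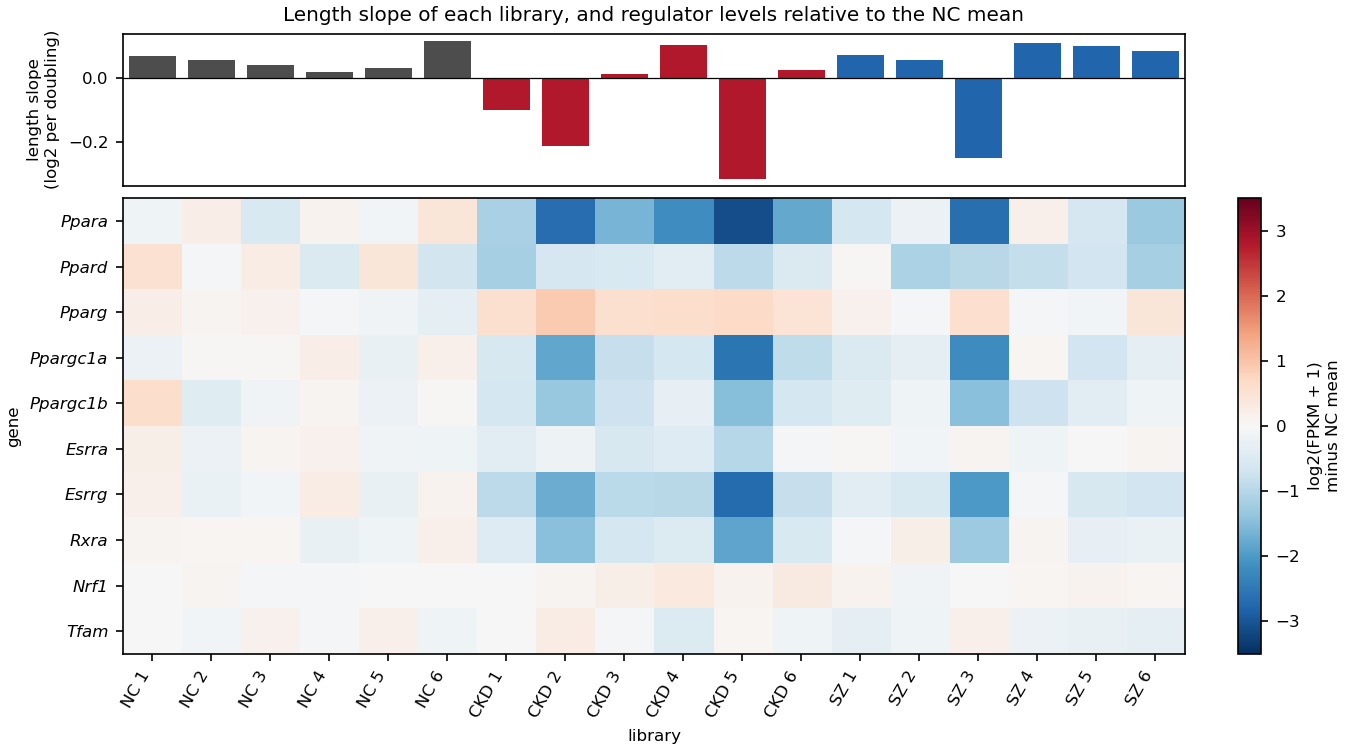
Top, slope of log2(FPKM + 1) per doubling of gene length for each library (bars, coloured by group); bottom, log2(FPKM + 1) of each regulator (rows) in each library (columns) minus its NC mean, blue for lower and red for higher. CKD 2, CKD 5 and SZ 3, with slopes of -0.21, -0.31 and -0.25, are the darkest blue columns for Ppara, Ppargc1a, Ppargc1b, Esrrg and Rxra.

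By mean level in NC the order was Tfam (30.2 FPKM), Rxra (26.4), Ppard (17.9), Esrrg (17.9), Ppargc1a (14.96), Ppara (12.7), Ppargc1b (3.80), Esrra (3.64), Nrf1 (2.27) and Pparg (0.506). The ranges of neighbours overlapped, except between Ppara and Ppargc1b, Esrra and Nrf1, and Nrf1 and Pparg. In CKD Ppara stood in place 7, below Nrf1 (2.70 FPKM) and above Esrra (2.47), and its range overlapped both. In SZ it was in place 6, below Ppard (9.997) and above Esrra (3.61), with overlapping ranges. FPKM is per length, but levels fell with gene length in CKD 2, CKD 5 and SZ 3, so the orders in CKD and SZ are approximate. Without CKD 2 and CKD 5 the CKD means were 3.33 FPKM for Ppara and 2.80 for Nrf1, which puts Ppara above Nrf1.

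Of 20 partners and co-regulators of these factors tested, 10 were called lower in CKD and 2 higher, with a median of -0.34, where 26.0% of all genes were called lower and 24.4% higher. Hnf4a, the hepatocyte nuclear factor that sets proximal tubule identity, fell from 191 FPKM in NC (SD 7.94) to 79.8 in CKD (SD 31.3) and stood at 136 in SZ (SD 18.3), and it was called in CKD against NC (-1.34) and in SZ against CKD (0.84, adjusted p = 0.014). Esrrb, the remaining ERR, fell from 4.54 FPKM in NC to 1.02 in CKD (-1.44) and to 1.16 in SZ (-1.33 against NC, adjusted p = 0.00014), and SZ and CKD differed by 0.12 (adjusted p = 0.72). Prkaa2, the AMPK catalytic subunit alpha 2, fell from 20.4 to 7.87 FPKM in CKD (-1.47, adjusted p = 0.0095), and SZ stood at 14.4 and was not called against CKD (adjusted p = 0.26).

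The corepressor Ncor1 also fell in CKD, by 0.82 (19.9 to 11.4 FPKM, adjusted p = 0.011), as did the coactivator Ncoa1, by 0.41 (adjusted p = 0.0084). The 2 called higher were Pprc1, another PGC-1 family member (2.96 to 4.83 FPKM, 0.52, adjusted p = 0.017), and Kat2a, an acetyltransferase that acts on PGC-1 alpha (5.89 to 8.57 FPKM, 0.46, adjusted p = 0.0048). Nrip1 (0.15, adjusted p = 0.45) and the deacetylase Sirt1 (-0.17, adjusted p = 0.21) were not called. Perm1 lay below the filter, at a mean of 0.266 FPKM in NC, 0.335 in CKD and 0.253 in SZ. The direction of this list depends on scaling: under TPM 6 of the 20 were called higher and 2 lower, with a median of 0.086.

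Genes that PPAR alpha is known to activate were mostly lower in CKD: 24 of 29 tested were called lower and 2 higher, with a median of -0.85. Of all genes tested, 26.0% were called lower and 24.4% higher. Under TPM scaling 16 of the 29 were lower and 2 higher, where 1279 of all 13851 genes were called lower and 6581 higher. Cpt1a, which admits long-chain fatty acids to mitochondria, fell by 0.97 (76.6 to 39.9 FPKM, adjusted p = 0.00042). Cyp4a1, the fatty acid omega-hydroxylase, fell by 1.42 (124.0 to 52.1 FPKM, adjusted p = 0.0010), and Pdk4, a brake on glucose oxidation, fell by 1.05 (32.0 to 14.6 FPKM, adjusted p = 0.0096).

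The 2 called higher were Angptl4, a secreted inhibitor of lipoprotein lipase (15.9 to 36.7 FPKM, 1.18, adjusted p = 0.00047), and Plin2, a lipid droplet coat protein (39.5 to 55.2 FPKM, 0.47, adjusted p = 0.0097). Both were also called higher in SZ against NC (0.85 and 0.65, adjusted p = 0.017 and 0.0030), and neither differed from CKD past the threshold in SZ (adjusted p = 0.36 and 0.40). In SZ against CKD 8 of the 29 were called higher and 0 lower, with a median of 0.50, where 4.16% of all genes were called higher. Among the 8 were Cyp4a2 (1.06, adjusted p = 0.018, 1 of 2 rows with that symbol) and Cpt1a (0.73, adjusted p = 0.024). In SZ against NC, 2 were higher and 2 lower, with a median of -0.35, where 12.5% of all genes were called higher and 8.61% lower. Without the 3 libraries the CKD against NC split was 23 lower and 2 higher, and 6 were higher in SZ against CKD.

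Of 9 genes known as PPAR gamma targets that were tested, 3 were called higher in CKD and 5 lower, with a median of -0.46. Of all genes, 24.4% were called higher and 26.0% lower, so the 3 called higher are near that share and are no result about the list. Angptl4 and Acsl1 are in the PPAR alpha list too, and Adipoq and Cidec are also among the adipocyte markers. The balance depends on scaling and libraries: it was 3 higher and 2 lower under TPM scaling (median -0.043) and under plain totals (median -0.13), and 3 and 3 without the 3 libraries. Fabp4, a fatty acid binding protein of adipocytes that macrophages and some endothelium also make, ran from 0.077 to 2.67 FPKM in NC, from 8.59 to 67.5 in CKD and from 1.33 to 22.5 in SZ. The CKD libraries lay above every NC library; the difference was 3.30 in CKD against NC (adjusted p = 3.2e-05) and -1.77 in SZ against CKD (adjusted p = 0.031). Lpl, lipoprotein lipase, was 36.4 FPKM in NC, 73.3 in CKD and 36.4 in SZ, higher in CKD by 0.97 (adjusted p = 0.00023) and lower in SZ against CKD (-1.01, adjusted p = 0.0043). Adipoq, the adipocyte hormone, was lower in CKD (5.95 to 4.09 FPKM, -0.42, adjusted p = 0.021), a call lost without the 3 libraries and on either other scale, TPM or plain totals.

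Of 23 genes known to respond to PGC-1 and ERRs, most of them of the respiratory chain or citric acid cycle, 18 were called lower in CKD and 0 higher. The median was -0.69, and 26.0% of all genes were called lower. Vdac1, Slc25a4, Mfn2, Sod2, Acadm and Pdk4 belong to neither of these pathways, and Acadm and Pdk4 are in the PPAR alpha list too. Cycs, cytochrome c, fell by 1.29 (434.9 to 187.2 FPKM, adjusted p = 0.00013); Vdac1, the outer membrane channel, fell by 0.98 (85.9 to 44.2 FPKM); Cs, citrate synthase, fell by 0.41 (71.1 to 53.5 FPKM, adjusted p = 0.0020). In SZ against CKD, Vdac1 (0.53, adjusted p = 0.020), Mfn2 (0.37, adjusted p = 0.032) and Uqcrc2 (0.50, adjusted p = 0.045) were called higher and 0 lower. The median was 0.28, and 4.16% of all genes were called higher. In SZ against NC 5 of 23 were called lower and 0 higher, where 8.61% of all genes were called lower. Without the 3 libraries 14 of 23 were called lower, where 1752 of all 13851 genes were. Under TPM scaling the CKD against NC split of the 23 was 8 lower and 2 higher, and 0 were called in the other comparisons; at that scaling the direction of the median was the same in CKD against NC (-0.25).

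**Figure D4:**
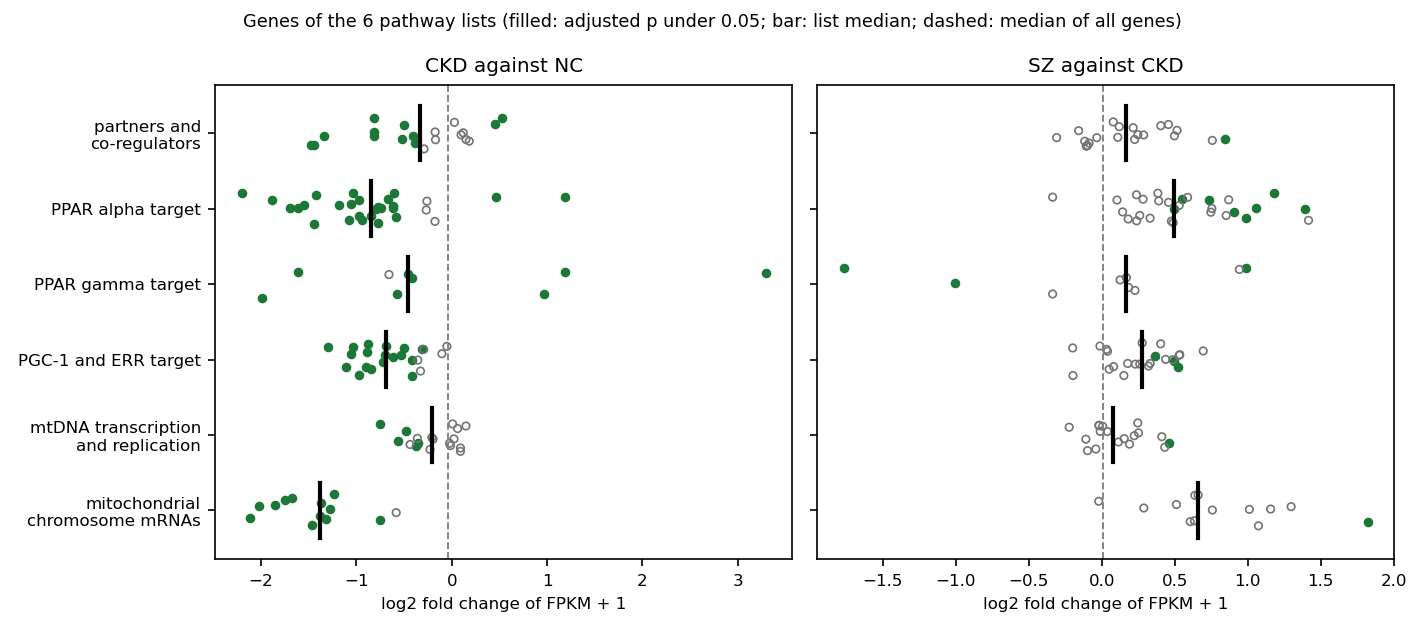
Log2 fold change of FPKM + 1 (horizontal axis) of each tested gene of the 6 pathway lists in CKD against NC and in SZ against CKD; filled points were called, black bars are list medians and the dashed line is the median of all genes tested. In CKD against NC the mitochondrial mRNAs (median -1.38) and the PPAR alpha targets (median -0.85) lie farthest left.

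Beside Nrf1 and Tfam, 18 other genes of mitochondrial DNA transcription and replication were tested, of which 5 were called lower in CKD and 0 higher, with a median of -0.20. The share called lower is near the 26.0% of all genes called lower, and is no result about the list. Tfb2m, the transcription factor that melts mitochondrial promoters, fell by 0.75 (27.0 to 16.1 FPKM, adjusted p = 0.00037), and Polrmt, the mitochondrial RNA polymerase, fell by 0.37 (9.27 to 6.95 FPKM, adjusted p = 0.0060). Lonp1, the matrix protease that degrades TFAM, fell by 0.48 in CKD (63.9 to 46.5 FPKM, adjusted p = 0.0035) and was called higher in SZ against CKD (0.46, adjusted p = 0.026). Gabpa (-0.023, adjusted p = 0.89) and Tfb1m (-0.23, adjusted p = 0.23) were not called. This list's direction depends on scaling: under TPM 8 were called higher and 1 lower.

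Of 13 mRNAs encoded on the mitochondrial chromosome, 12 were called lower in CKD against NC, with a median of -1.38, where 26.0% of all genes were called lower. Tfam was not called (and was called higher under TPM scaling). Mt-nd6, the one encoded on the light strand, fell by 1.38 (3224 to 1319 FPKM, adjusted p = 0.00014), and Mt-atp8 fell by 2.12 (321.9 to 80.4 FPKM, adjusted p = 0.00051). As a share of all reads this chromosome averaged 19.4% over the 6 NC libraries (SD 3.28), 10.3% over the 6 CKD libraries (SD 3.61) and 14.05% over the 6 SZ libraries (SD 2.83). The exact 2-sided permutation p was 0.0043 for CKD against NC (adjusted p = 0.013 over 3 comparisons), 0.087 for SZ against CKD (adjusted p = 0.087) and 0.015 for SZ against NC (adjusted p = 0.023), where 0.0022 is the smallest possible. Without CKD 2 the SZ against CKD difference passed the threshold (4.88 percentage points, exact permutation p = 0.017). Without the 3 libraries the mean shares were 9.997% in CKD and 14.6% in SZ.

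Markers of several cell types also differed between the groups. The summed FPKM of 12 proximal tubule markers, led by Miox, ran from 7120 to 8845 in NC, from 1186 to 4506 in CKD and from 4258 to 5961 in SZ. In CKD 10 of 12 were called lower (median -1.53). In SZ against CKD 8 of 12 were called higher (median 1.01), where 4.16% of all genes were. Other nephron markers were also called lower in CKD: 6 of 6 for loop and distal tubule, 5 of 6 for collecting duct and 4 of 4 for podocytes, where 26.0% of all genes were. Under TPM scaling these counts were 3, 4 and 3. Among 6 endothelial markers 3 were called lower in CKD (median -0.33) and 0 were called in SZ against CKD. Under TPM scaling 1 endothelial marker was called higher in CKD and 1 lower. Of the 6 collecting duct markers 3 were called higher in SZ against CKD, while the lowest limma adjusted p was 0.12 among the loop and distal tubule markers (Slc12a3, 0.84) and 0.091 among the podocyte markers (Podxl, 0.58). The summed FPKM of 11 macrophage markers, led by Lyz2, ran from 112.1 to 213.7 in NC, from 1143 to 2529 in CKD and from 452.2 to 1057 in SZ. All 10 tested were called higher in CKD, where 24.4% of all genes were. For Cd163 that call is a description. No NC library was above 0.145 FPKM, so it passed the filter mainly through the CKD group. The 9 fibroblast and mural markers summed to 90.3 to 208.4 FPKM in NC, 435.3 to 1185 in CKD and 239.4 to 534.2 in SZ. In bulk kidney RNA, fewer cells of a type and less RNA per cell cannot be told apart, and the part of cell makeup in the regulator values was not tested. Striated muscle, adrenal cortex and urothelium markers were near 0, with no list's sum above 6.03 FPKM in any library.

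The genes whose log2(FPKM + 1) followed a regulator most closely over the 18 libraries, by Pearson r among 11462 tested genes with a proper symbol, are given as a description, since the libraries share groups and the 3 libraries above. For Ppara they were Zfyve9 (0.97) and Pdpr (0.96), for Ppargc1a Fam13a (0.97) and Adgrf5 (0.97), for Esrrg Atxn7 (0.98) and Prkce (0.98), and for Rxra Dnaaf9 (0.98) and Myo10 (0.98). For Ppargc1b they were Tnrc6b (0.94) and Bag4 (0.93), for Esrra Slc25a42 (0.89) and Megf11 (0.87), and for Pparg Rps12 (0.89) and Rhno1 (0.89). For Ppard they were Arntl (0.89), a core clock transcription factor, and Rmc1 (0.87), for Nrf1 Mex3d (0.85) and Socs1 (0.85), and for Tfam Ccndbp1 (0.92) and Cript (0.89).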

How the data were processed

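Total RNA was extracted with Trizol and libraries were made with an Illumina TruSeq kit, per the labels' protocols. The authors deposited 1 table of FPKM values. HISAT2 2.0.5 and the build mRatBN7.2 are named in the submitters' processing notes; the sources used here do not name the counting program, strand setting or annotation release, so overlapping and antisense genes cannot be told apart.

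FPKM times gene length came in whole multiples of a library-specific step (100% of values above 0, tolerance 0.01), which gave whole reads and the depth behind each value. Genes with at least 1 FPKM in at least 6 libraries (13851, of which 12604 protein coding; 18265 set aside) were tested as log2(FPKM + 1), pseudocount 1, with limma 3.58.1 in R 4.3.3: 1 fit of 3 group means over 18 libraries, intensity trend, 2-sided, Benjamini-Hochberg adjustment within each comparison. All 10 regulators passed this filter, so the exact test planned for genes below it was not needed. The mitochondrial share of reads was put to an exact permutation test (scipy 1.17.1, 924 splits). The limma step was tested on simulated data.

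All 10 regulators are named. Of each pathway list the rule names the 3 genes with the smallest adjusted p per comparison and a fixed set named whatever their values, and for each regulator the 2 genes with the highest r; some genes this rule names are not reported here. The regulators, lists and tests were chosen with earlier results of these data known. Lists hold 198 symbols, of which 194 were found and 162 tested; Cd36, Flt1, Pvalb and Synpo were not analysed here. Where a symbol had more than 1 row, the row with the highest mean was used. Alternatives were 11 other settings and leaving out each of the 18 libraries.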

Additional observations from a re-analysis of the deposited data

Results flagged for a closer look

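Within groups of 6, 2 of 33 sets of values held a library farther from its nearest neighbour than Dixon's 95% limit allows, and chance gives about 1 in 20. Ppard in SZ 1 was 17.7 FPKM, against 7.15 to 10.4 in the other SZ libraries, a gap of 0.70 of the range. Tfam in SZ 3 was 34.3 FPKM, against 24.1 to 27.2 in the others, also a gap of 0.70 of the range; SZ 3 is 1 of the 3 libraries whose levels fell with gene length.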

How the results depend on the processing

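The falls of Ppara and Esrrg in CKD against NC were called under all 29 alternatives, and depth limits Pparg most, with as few as 7 reads in a library. In CKD against NC, a mean FPKM of at least 5 left 4447 genes called and 5 regulators of the 6 it kept, and TPM scaling gave 5 regulators. In SZ against CKD, fitting only the groups compared gave 554 genes and array weights 2830. A different regulator was called, 1 in each fit, with a pseudocount of 0.1 (Esrra) and with a mean FPKM of at least 5 (Ppara). With no low-value filter, TPM scaling or plain library totals the 1 called was Pparg, whose call is a description. None (0) was called when only the groups compared were fitted, where limma's unadjusted p was under 0.05 for 4 regulators. The voom fit on recovered reads called 2, Pparg and Esrra. In SZ against NC, a mean FPKM of at least 5 gave 1627 genes and array weights 5492; regulators called were 0 under TPM scaling (0 at an unadjusted limma p under 0.05), 0 under plain library totals (1 at an unadjusted p under 0.05), 3 with array weights and 2 without CKD 2, CKD 5 and SZ 3.

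Leaving out 1 library at a time gave 533 (without SZ 4) to 3058 (without SZ 3) genes in SZ against CKD, with 669 without CKD 5, 831 without SZ 1, 850 without SZ 2, 1010 without CKD 3 and 2798 without CKD 1. Regulators called there ran from 0 (without CKD 3, CKD 4, CKD 5, SZ 1, SZ 2, SZ 4 or SZ 5) to 6 (without SZ 3, Pparg among them), with 1 without CKD 2 (Esrra) or SZ 6 (Pparg). In SZ against NC the regulators called ran from 0 (without NC 1) to 2 (without CKD 5). The mitochondrial share in SZ against CKD differed by 7.72 percentage points as a share of summed FPKM and by 4.64 without the 3 libraries, both past the threshold in the exact test, and by 2.84 (without CKD 5) to 4.88 (without CKD 2) with 1 library left out, past the threshold without CKD 2 (exact permutation p = 0.017) and in no other of these fits.

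Directions that turned were those of differences near 0. Tfam in CKD against NC was 0.38 under TPM scaling, 0.27 under plain totals and -0.13 to 0.015 with 1 library left out; Tfam in SZ against NC was 0.13 and 0.040 under the same scalings. Rxra in SZ against NC was 0.037 under TPM scaling. Esrra in SZ against NC was 0.27 under TPM scaling, 0.17 under plain totals, 0.0011 with voom, 0.00099 with the length correction, and -0.046 to 0.037 with 1 library left out. Where not given by the setting's own construction, such as fewer genes or samples, the cause was not tested.

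Replicate numbers did not pair libraries: deviations of same-numbered libraries correlated from -0.36 to 0.23 over 18 pairs, 4 of them above 0.1, and 1 library correlated best with its own number. With the replicate block, 6636, 1195 and 2584 genes and 8, 0 and 1 regulators were called in CKD against NC, SZ against CKD and SZ against NC; for the 0, limma's unadjusted p was under 0.05 for 5 regulators.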

Other observations

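Ppard ranged widely within NC, and clock genes were looked at beside it after the values had been seen, with no test of the relation. They were Arntl (BMAL1, a core activator), Dbp (a clock output gene), Npas2, Clock, Cry1, Per1, Per2, Per3, Nr1d1, Nr1d2 and Tef. Only Arntl and Dbp are given by library. In NC, Ppard was highest in NC 1 (25.3 FPKM), where Arntl was also highest (12.9) and Dbp lowest (6.91). It was lowest in NC 4 (11.6) and NC 6 (10.6), which also held the lowest Arntl (6.29 and 5.86) and the highest Dbp (29.8 and 22.3). In SZ, Ppard was highest in SZ 1 (17.7 FPKM), where Arntl was highest (8.58) and Dbp lowest (10.4). In CKD the library with the highest Ppard was CKD 4 (12.7), while Arntl was highest in CKD 6 (9.34), so the order was not shared there; CKD 1 had the lowest Ppard (7.02) and the highest Dbp (19.9).

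Arntl, like Ppard, was called lower in SZ against NC (-0.82, limma adjusted p = 0.015), and its CKD against NC difference was -0.41 (adjusted p = 0.13). Dbp stood at 16.9 FPKM in NC (SD 8.30), 10.3 in CKD (SD 4.98) and 26.3 in SZ (SD 11.5), higher in SZ against CKD (1.24, adjusted p = 0.030). Of the other clock genes, Npas2, Clock, Per1, Per2, Per3, Nr1d1 and Tef were called lower in CKD against NC, where 26.0% of all genes were called lower. Cry1 and Nr1d2 were not. In SZ against CKD, Per2, Per3, Nr1d1, Nr1d2 and Tef were called higher, where 4.16% of all genes were, and Npas2, Clock, Cry1 and Per1 were not called. In SZ against NC only Per1 of these was called (-1.65, adjusted p = 0.00032). The sources used here do not give the time of day at which tissue was taken, and its part in the Ppard values was not tested.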
